A study of Mus musculus with 2 samples.

Results

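Pericytes and vascular smooth muscle cells together form the mural cells, which wrap the endothelium of capillaries and of larger vessels, respectively. The 7 mural cell genes described here are Pdgfrb, Rgs5, Abcc9, Kcnj8 and Notch3 for pericytes and Myh11 and Acta2 for smooth muscle, and they were found by gene symbol among the loci of an adult and an aged heart. Of the 7 genes, 6 were found in both libraries, out of 25235 loci with reads in either, and reads of Kcnj8 were not analysed here. All 6 had at least 20 reads in each library, the minimum used throughout. Pericytes are recruited to vessels by PDGF-BB from endothelial cells, which binds the receptor tyrosine kinase encoded by Pdgfrb, and both mural cell types receive signals from Jagged ligands through the receptor Notch3. Smooth muscle cells contract with the actin of Acta2 and the myosin heavy chain of Myh11, whose transcription is driven by serum response factor (SRF) and its coactivators at promoter sequences called CArG boxes. In the heart, pericytes are also known for an ATP-sensitive potassium channel built from the products of Kcnj8 and Abcc9.

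The values come from snRNA-seq of 1 adult heart (9 weeks) and 1 aged heart (78 weeks) of female F1 mice, for which no treatment is named, with a C57BL/6J (BL6) mother and a CAST/EiJ (CAST) father. The genotype field of both labels reads C57BL/6JxCAST/EiJ and the study describes the mice as wild type, whereas the breed field of both labels gives C57BL/6J∆Xist-/+ for the mothers. Nuclei were extracted from frozen tissue and sorted on the DNA dye DRAQ7 and not on a cell type, and the deposited reads pool the nuclei of each age whose active X chromosome (Xa) was BL6. An F1 nucleus carries 1 copy of each autosome from each strain, and a read covering a single-nucleotide polymorphism (SNP) can be assigned to its allele. Read counts were divided by the SNP-overlapping reads of all loci and are given as reads per 1000000 (RPM), and the allelic ratio is the BL6 share of the reads of a gene. The adult library held 9747535 such reads over 24015 loci and the aged library 5805807 over 22691, so that 1 read was worth 0.103 and 0.172 RPM. The median allelic ratio of autosomal genes was 0.534 at 9 weeks and 0.537 at 78 weeks. The ages were not compared by a test, since each has a single library. Intervals are 95% intervals that cover counting error only, and variation between animals is unmeasured. They are exact, except for the Newcombe intervals of changes in allelic ratio, which are approximate. In pooled nuclei, a larger number of nuclei of a type cannot be told apart from more RNA per nucleus.

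Of the 6 mural cell genes, 5 had higher RPM in the aged than in the adult heart, namely Myh11 with 3.32 times the adult value, Acta2 with 2.38, Rgs5 with 2.33, Pdgfrb with 2.04 and Notch3 with 1.90. Abcc9 was the exception, with 0.853 times the adult value. A ratio of at least 1.5 was thus reached by 5 of 6 genes, while 28.3% of 12390 autosomal genes with at least 20 reads in both libraries reached it. A ratio of 1/1.5 or less was found for 0 of 6 genes and for 11.7% of autosomal genes. The median log2 ratio was 1.12 over the 6 genes and 0.22 over all autosomal genes, corresponding to ratios of 2.19 and 1.17, and the interquartile range of all autosomal genes ran from 0.868 to 1.57. Among the 4649 autosomal loci of 15 to 115 kb, the range of lengths of the 6 genes, that had at least 100 reads in both libraries, 23.3% reached 1.5. The share of autosomal genes at or above 1.5 moved with the length of the locus, from 47.6% of 886 loci under 5 kb to 19.3% of 1721 loci of 115 kb or more. The part of locus length in the ratios was not tested. Scaling with TMM factors multiplied every ratio by 0.855, a log2 shift of -0.23, and brought the autosomal median to a log2 ratio of -0.00. With it, 17.9% of autosomal genes were higher and 18.4% lower by 1.5-fold, so that higher genes made up 49.4% of the calls in place of 70.8%. The same 5 genes still reached 1.5 with each of 4 other scalings.

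**Figure D1:**
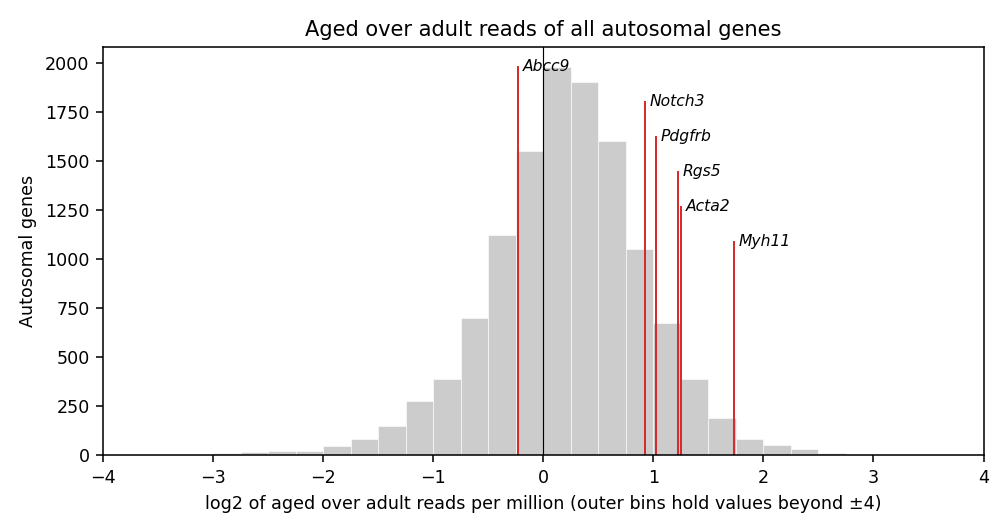
Number of autosomal genes (y axis) by log2 of aged over adult RPM (x axis, bins of equal width) for the 12390 autosomal genes with at least 20 reads in both libraries, with a red line at the log2 ratio of each of the 6 mural cell genes. Abcc9 lies at -0.23, left of the autosomal median of 0.22, and the other 5 genes lie between 0.93 and 1.73.

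Pdgfrb encodes the PDGF receptor beta, the receptor by which pericytes are recruited. It lies on the plus strand of chromosome 18 of GRCm38 from 61045150 to 61085067. In the adult heart it had 264 BL6 and 148 CAST reads, that is 42.3 RPM (38.3 to 46.6), and in the aged heart 294 BL6 and 206 CAST reads, that is 86.1 RPM (78.7 to 94.0). Both alleles were higher in the aged heart and the intervals of the ages did not overlap for either. The ratio of aged to adult RPM was 2.04 (1.78 to 2.33) over both alleles, 1.87 (1.58 to 2.22) for BL6 and 2.34 (1.88 to 2.91) for CAST. Of all autosomal genes, 10.9% had a ratio at least as high. Its allelic ratio was 0.641 (0.592 to 0.687) at 9 weeks and 0.588 (0.543 to 0.632) at 78 weeks. Pdgfrb was thus the gene with the largest BL6 share in the adult heart, and its interval lay above the autosomal median at both ages. The adult minus the aged allelic ratio gave a change of 0.0528 with a Newcombe interval of -0.0108 to 0.115 that includes 0.

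Notch3 encodes the Notch receptor of mural cells and lies on the minus strand of chromosome 17 from 32120820 to 32166896. It had 149 BL6 and 152 CAST reads at 9 weeks and 183 BL6 and 158 CAST reads at 78 weeks. The reads amounted to 30.9 RPM (27.5 to 34.6) at 9 weeks and 58.7 RPM (52.7 to 65.3) at 78 weeks. The increase was present on both alleles, with a ratio of 2.06 (1.65 to 2.58) for BL6, 1.75 (1.39 to 2.20) for CAST and 1.90 (1.62 to 2.23) for both. Its allelic ratio of 0.495 (0.437 to 0.553) at 9 weeks and 0.537 (0.482 to 0.591) at 78 weeks held the autosomal median within its interval at both ages, the only one of the 6 genes to do so. The change in allelic ratio was -0.0416 (-0.118 to 0.0356). The locus of Notch3 shares 10673 bp with the predicted locus Gm38585, which had 166 adult and 150 aged reads and a ratio of 1.52 (1.21 to 1.90). Counting by strand is not stated, so the reads of the shared stretch cannot be divided between them. A second predicted locus inside Notch3, Gm41568, had 1 adult read and 0 aged reads.

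Rgs5 encodes a regulator of G protein signalling that shortens signals from Gq- and Gi-coupled receptors and is a common marker of pericytes. It lies on the plus strand of chromosome 1 from 169655501 to 169695813 and had 110 BL6 and 85 CAST reads at 9 weeks and 166 BL6 and 105 CAST reads at 78 weeks. This gave 20.01 RPM (17.3 to 23.0) at 9 weeks and 46.7 RPM (41.3 to 52.6) at 78 weeks, a ratio of 2.33 (1.93 to 2.82). Rgs5 was among the 6.64% of autosomal genes with the highest ratios. Unlike the other genes except Notch3, its ratio was larger on the BL6 allele (2.53, 1.98 to 3.25) than on the CAST allele (2.07, 1.54 to 2.79), although these intervals overlap. Its allelic ratio was 0.564 (0.491 to 0.635) at 9 weeks and 0.613 (0.552 to 0.671) at 78 weeks, where it was the largest of the 6. The change in allelic ratio was -0.0484 (-0.138 to 0.0415).

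Abcc9 encodes the sulfonylurea receptor SUR2, the regulatory subunit that surrounds the pore formed by the product of Kcnj8. The RefSeq gene table of GRCm38 places Kcnj8 on chromosome 6 from 142564837 to 142571614, 16.2 kb from Abcc9, which lies on the minus strand from 142587862 to 142702767. Abcc9 had 123 BL6 and 119 CAST reads at 9 weeks and 53 BL6 and 70 CAST reads at 78 weeks. The reads amounted to 24.8 RPM (21.8 to 28.2) at 9 weeks and 21.2 RPM (17.6 to 25.3) at 78 weeks, and the intervals overlap. The ratio was 0.853 (0.681 to 1.06) for both alleles, 0.723 (0.514 to 1.01) for BL6 and 0.988 (0.724 to 1.34) for CAST, and each of these intervals includes 1. The allelic ratio was 0.508 (0.443 to 0.573) at 9 weeks and 0.431 (0.342 to 0.523) at 78 weeks, where it lay below the autosomal median, and the change was 0.0774 (-0.0309 to 0.182).

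Most Abcc9 reads lay in a small piece of its locus. The antisense locus 5330439B14Rik, from 142614595 to 142626462 on the plus strand, takes 10.3% of the length of Abcc9 (11.9 of 114.9 kb) and held 190 of its 242 adult reads (78.5%, 72.8% to 83.5%) and 74 of its 123 aged reads (60.2%, 50.9% to 68.9%). Reads of a nested locus were taken to be counted in the containing locus as well, and in 3295 of 3295 such pairs the nested locus had no more reads than the containing one. Inside 5330439B14Rik, the ratio of aged to adult RPM was 0.654 (0.493 to 0.860) and the allelic ratio was 0.479 (0.406 to 0.552) at 9 weeks and 0.486 (0.369 to 0.606) at 78 weeks. Subtraction of these reads, a step added after the values had been seen, left 52 adult reads (32 BL6, 20 CAST) and 49 aged reads (17 BL6, 32 CAST). The remainder of Abcc9 was at 5.33 RPM (3.98 to 6.996) at 9 weeks and 8.44 RPM (6.24 to 11.2) at 78 weeks, a ratio of 1.58 (1.05 to 2.38). Outside the antisense locus, therefore, Abcc9 was on the same side of 1 as the other 5 genes, and a ratio of at least 1.5 was then found for 6 of 6 genes. With TMM factors, however, the ratio of this remainder was 1.35 (0.897 to 2.04), which includes 1, and 5 of 6 genes reached 1.5. The ratio was 2.69 (1.49 to 4.96) for the CAST allele and 0.892 (0.465 to 1.65) for the BL6 allele, with overlapping intervals. The allelic ratio of the remainder was 0.615 (0.470 to 0.747) at 9 weeks and 0.347 (0.217 to 0.496) at 78 weeks, a change of 0.268 (0.0734 to 0.436). Without strand-specific counting, reads inside the antisense locus cannot be assigned to either gene.

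**Figure D2:**
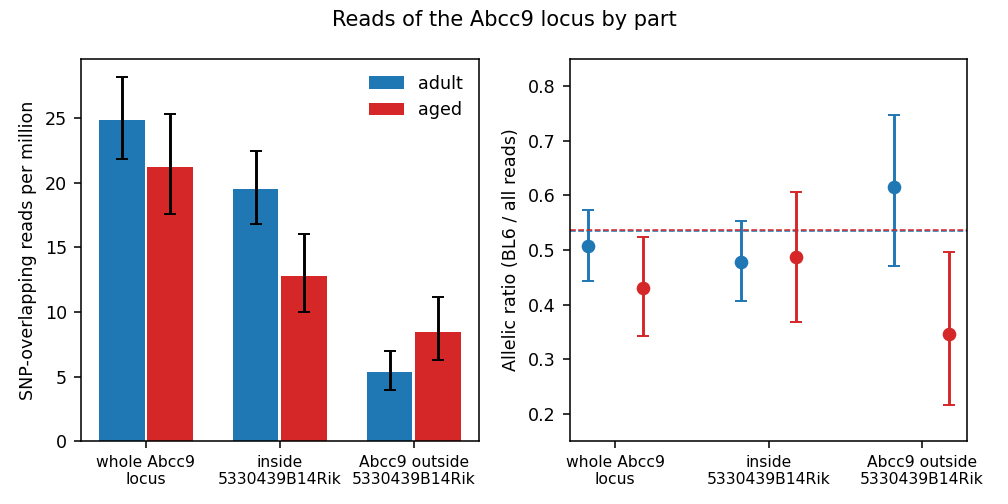
RPM (left, bars) and allelic ratio (right, points) of the whole Abcc9 locus, the nested antisense locus 5330439B14Rik and the rest of Abcc9 in the adult (blue) and aged (red) library, with exact 95% Poisson and Clopper-Pearson intervals, the dashed line marking the autosomal median allelic ratio. The aged bar is lower inside the nested locus (12.7 against 19.5 RPM) and higher outside it (8.44 against 5.33 RPM).

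Myh11 encodes the smooth muscle myosin heavy chain, the most restricted marker of differentiated smooth muscle among the genes described. It lies on the minus strand of chromosome 16 from 14194527 to 14291408. In the adult heart it had 314 BL6 and 333 CAST reads, that is 66.4 RPM (61.4 to 71.7), and in the aged heart 557 BL6 and 721 CAST reads, that is 220.1 RPM (208 to 233). Its ratio of 3.32 (3.01 to 3.65) was the largest of the 6 genes, and 1.63% of autosomal genes had a ratio at least as high. The lower limit lay above the upper limits of the other 5. BL6 reads were higher by 2.98 times (2.59 to 3.43) and CAST reads by 3.64 times (3.19 to 4.15). The allelic ratio of Myh11 was 0.485 (0.446 to 0.525) at 9 weeks and 0.436 (0.408 to 0.464) at 78 weeks and lay below the autosomal median at both ages. The change of 0.0495 (0.00242 to 0.0965) excluded 0 by a narrow margin and was matched or exceeded in size by 55.0% of autosomal genes.

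Acta2 encodes smooth muscle alpha-actin and lies on the minus strand of chromosome 19 from 34240336 to 34255585. It had 122 BL6 and 95 CAST reads at 9 weeks and 133 BL6 and 175 CAST reads at 78 weeks, or 22.3 RPM (19.4 to 25.4) and 53.1 RPM (47.3 to 59.3). The ratio was 2.38 (1.997 to 2.85). The alleles differed in size, with 1.83 (1.42 to 2.36) for BL6 and 3.09 (2.40 to 4.01) for CAST, and these intervals did not overlap. The allelic ratio was 0.562 (0.493 to 0.629) at 9 weeks and 0.432 (0.376 to 0.489) at 78 weeks, so that the interval held the autosomal median at 9 weeks and lay below it at 78 weeks. Acta2 was the only one of the 6 genes whose allelic ratio intervals were separate between the ages. The change of 0.130 (0.0436 to 0.214) was matched or exceeded in size by 18.2% of autosomal genes. How reads that match several of the closely similar actin genes were assigned is not stated in the sources used here.

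**Figure D3:**
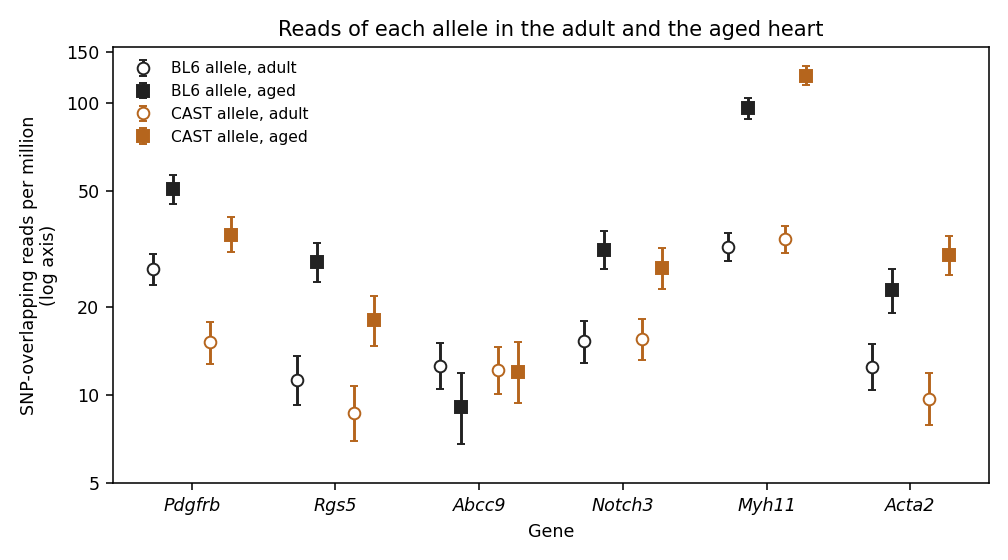
SNP-overlapping reads in RPM (log axis) of the BL6 (black) and CAST (brown) allele of each gene in the adult (open circles) and aged (filled squares) library, with exact 95% Poisson intervals. Aged values lie above adult values with separate intervals for both alleles of Pdgfrb, Rgs5, Notch3, Myh11 and Acta2, and not for either allele of Abcc9.

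The windows before the start sites of the genes were searched for the motif of SRF, the factor known to drive smooth muscle genes. The RefSeq promoter table of GRCm38.p6 has an entry for 5 of the 7 genes, Rgs5, Abcc9, Kcnj8, Notch3 and Acta2, and the 250 bases upstream of the start site used in that table were read. For Rgs5 and Kcnj8, the window ended where the locus begins. For Acta2, the start site of the table lies 212 bases inside the locus, and 217 of the 250 bases lie in an exon of GENCODE M21. For Abcc9, it lies 493 bases inside the locus, so that all 250 bases belong to the locus, and for Notch3 it lies 6 bases inside. Both strands were searched for the CArG box, which reads the same on either strand. An exact CArG box was present in 1.47% of all 32851 windows of this length, and a box with at most 1 mismatch among its inner bases in 8.59%. The Acta2 window (chr19:34255374-34255623, minus strand) had no exact box and 2 boxes with 1 inner mismatch, CCCTATATGG from 84 to 75 and CCTTGTTTGG from 34 to 25 bases before the start site of the table, both inside the locus. The windows of Rgs5, Abcc9, Kcnj8 and Notch3 held neither form. The window of Rgs5 (chr1:169655251-169655500, plus strand), which like that of Kcnj8 lies outside its locus, is given 5′ to 3′ in lower case, with no box to mark by capitals.
Rgs5: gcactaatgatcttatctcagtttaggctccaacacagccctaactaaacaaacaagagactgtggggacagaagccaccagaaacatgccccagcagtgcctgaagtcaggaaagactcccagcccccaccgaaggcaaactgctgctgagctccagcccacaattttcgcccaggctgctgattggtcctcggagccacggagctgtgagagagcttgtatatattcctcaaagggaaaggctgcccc
A match describes these letters only, and the alleles of CAST were not read here.

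For comparison between genes, RPM were divided by the length of the locus in kb, although the density of SNPs, which also sets the number of informative reads, differs between genes and was not known. In the adult heart, Acta2 was highest with 1.46 RPM per kb, followed by Pdgfrb with 1.06, Myh11 with 0.685, Notch3 with 0.670, Rgs5 with 0.496 and Abcc9 with 0.216. Of these neighbours in the order, Myh11 and Notch3 had overlapping intervals. In the aged heart, the order was Acta2 with 3.48 RPM per kb, Myh11 with 2.27, Pdgfrb with 2.16, Notch3 with 1.27, Rgs5 with 1.16 and Abcc9 with 0.184, and the intervals overlapped between Myh11 and Pdgfrb and between Notch3 and Rgs5. Acta2 was therefore first and Abcc9 last at both ages, and Myh11 passed from Notch3's level to that of Pdgfrb.

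The allelic ratios of the 6 genes ranged from 0.485 (Myh11) to 0.641 (Pdgfrb) in the adult and from 0.431 (Abcc9) to 0.613 (Rgs5) in the aged heart. In the adult heart, 1 gene (Pdgfrb) had an allelic ratio at least 0.1 above the autosomal median and 0 lay at least 0.1 below it, beside 15.8% and 14.2% of autosomal genes, respectively. In the aged heart, 0 genes lay at least 0.1 above the median and 3 at least 0.1 below it (Abcc9 0.431, Myh11 0.436 and Acta2 0.432), beside 18.9% and 18.4%. The pericyte genes were thus not on 1 side in the aged heart. Abcc9 stood on the CAST side with Myh11 and Acta2, Pdgfrb (0.588) and Rgs5 (0.613) stood on the BL6 side, and Notch3 (0.537) was at the median. Outside 5330439B14Rik, the aged allelic ratio of Abcc9 was 0.347. From adult to aged, the allelic ratio was lower for 4 genes and higher for 2, Rgs5 and Notch3, and the interval of the change excluded 0 for Myh11 and Acta2. Changes of at least these sizes were found for 55.0% and 18.2% of autosomal genes, respectively. The allelic ratio was lower by at least 0.1 for 1 gene (Acta2), beside 13.8% of autosomal genes and 7.02% of the 7068 with at least 100 reads in both libraries, and higher by at least 0.1 for 0 genes, beside 14.2%. The median size of the change was 0.0511 over the 6 genes, 0.0572 over all autosomal genes and 0.0424 over the 4649 loci of similar length with at least 100 reads.

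**Figure D4:**
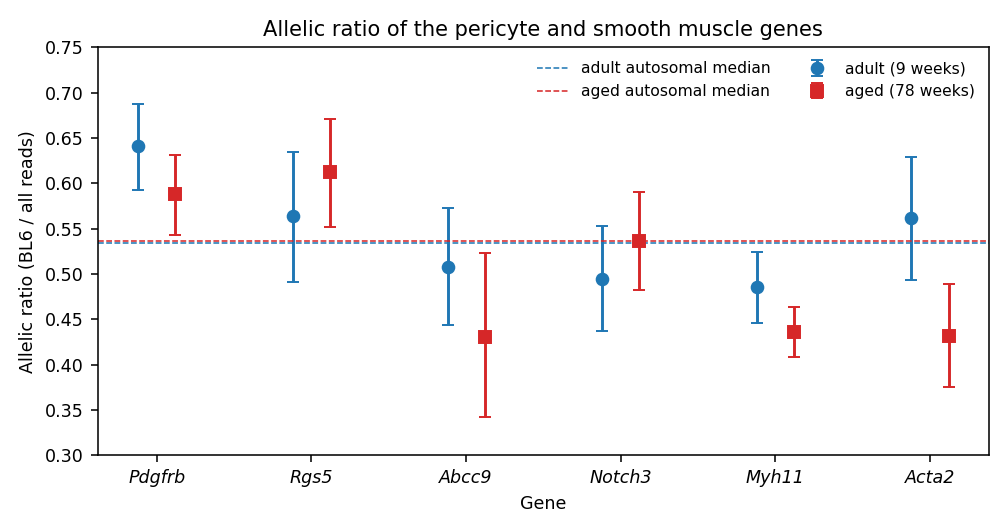
Allelic ratio (BL6 reads over all reads, y axis) of the 6 genes in the adult (blue circles) and aged (red squares) library with exact 95% Clopper-Pearson intervals, and the autosomal medians as dashed lines (0.534 and 0.537). The intervals of the ages are separate for Acta2 alone, which passes from above to below the medians.

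The loci beside the mural cell genes were examined for the same values. The nearest loci to Myh11 were Nde1, 1.60 kb away with a ratio of 1.54 (1.27 to 1.86), and Fopnl with 1.08 (0.936 to 1.248), both below the ratio of Myh11. Stambpl1 ends 3 bp short of Acta2 (0.003 kb) and had a ratio of 1.54 (1.28 to 1.84) and allelic ratios of 0.457 at 9 weeks and 0.441 at 78 weeks, below the autosomal median at both ages. On the other side of Acta2, Fas, the death receptor gene, 35.1 kb away, had a ratio of 0.937 (0.817 to 1.07), while its allelic ratio passed from 0.605 to 0.444, a change of 0.161 (0.0943 to 0.226). An allelic ratio lower by at least 0.1 in the aged heart was thus present in Fas and Acta2, whereas that of Stambpl1 was lower by 0.0167 with an interval of -0.0707 to 0.104. Rgs4, a relative of Rgs5 at 45.7 kb, had 21 adult and 39 aged reads and a ratio of 3.12 (1.79 to 5.58). Next to Pdgfrb, Camk2a had a ratio of 0.580 (0.473 to 0.707) and Csf1r of 1.18 (0.893 to 1.55). The neighbours of Abcc9, Ldhb and Cmas, had ratios of 0.797 and 0.735, and Rrp1b beside Notch3 of 0.676.

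The ligands, partners and relatives of the 6 genes were taken from lists, each gene being counted where it had at least 20 reads at both ages. The counts stand beside the 28.3% and 11.7% of autosomal genes past 1.5-fold in either direction. These shares were not matched to the length of the list genes. Of autosomal loci of 5 to 15 kb, 37.5% reached 1.5, and some list genes were this short, among them Higd1b (8.4 kb) and Myl9 (6.2 kb). Among PDGF genes, 2 of 5 reached a ratio of 1.5 and 0 were at 1/1.5 or less. With TMM factors or the median of ratios, 1 of 5 was at or above 1.5 and 1 at 1/1.5 or less. Pdgfb, the endothelial ligand of the receptor encoded by Pdgfrb, had 39 adult and 52 aged reads and a ratio of 2.24 (1.45 to 3.48), close to the 2.04 of its receptor. The other receptor Pdgfra, a fibroblast marker, had 1.71 (1.52 to 1.93), and the ligands Pdgfa, Pdgfd and Pdgfc had 1.34, 1.18 and 0.710. Of 16 further Notch pathway genes, 10 had enough reads, and of these 6 reached 1.5 and 1 was at 1/1.5 or less, with a median ratio of 1.64. The receptor Notch1 had the highest, 2.48 (2.004 to 3.09), and the coactivator Maml3 the lowest, 0.588 (0.554 to 0.624). The nuclear effector Rbpj had 1.39, the coactivators Maml2 and Maml1 1.85 and 1.02, and the receptor Notch2 1.09. Chosen after their values were seen, the ligand Jag1 (2.37, 1.95 to 2.89) and the mural target gene Heyl (2.45, 1.80 to 3.35) had ratios above that of Notch3. On the scale of TMM factors, ratios under 1.17 such as those of Notch2 and Maml1 lie under 1.

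The paralogs of the potassium channel genes were lower in the aged heart. Abcc8 and Kcnj11, which encode the channel subunits SUR1 and Kir6.2, were both at 1/1.5 or less, with ratios of 0.378 (0.312 to 0.455) and 0.586 (0.344 to 0.966). The cell types that gave the reads of Abcc8, Kcnj11 and Abcc9 cannot be told from pooled nuclei. Of the R4 regulators of G protein signalling related to Rgs5, 3 of 8 had at least 20 reads in both libraries, and Rgs4 (3.12) reached 1.5, whereas Rgs13 (1.30) and Rgs3 (1.19) did not. For the transcription of contractile genes, Srf had 23 adult and 41 aged reads and a ratio of 2.99 (1.75 to 5.22), and its coactivators Mkl1, Myocd and Mkl2 had 2.08, 1.21 and 0.735. Srf and Mkl1 were thus higher beside Myh11 and Acta2, whereas Myocd, the coactivator shared by cardiomyocytes and smooth muscle, had a ratio near the autosomal median of 1.17. Among actin and nonmuscle myosin paralogs, 2 of 5 reached 1.5. The cardiac actin gene Actc1, with 3286 adult and 8042 aged reads, had a ratio of 4.11 (3.95 to 4.28), above that of Acta2, and Myh9, Actg1, Myh10 and Myh14 had 1.58, 1.41, 1.37 and 0.581.

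Other pericyte genes and other smooth muscle genes were counted in the same way. Of 17 further pericyte genes, 14 had at least 20 reads in both libraries, and of these 9 reached 1.5 and 1 was at 1/1.5 or less, with a median ratio of 2.003 beside 1.17 for all autosomal genes. Higd1b, a marker of heart pericytes, had the highest, from 51 to 179 reads and 5.89 times (4.30 to 8.21). The guanylate cyclase subunits Gucy1a3 and Gucy1b3 had 1.63 and 1.20, and the transcription factor gene Ebf1 0.898. The lowest was the angiotensin receptor gene Agtr1a with 0.644 (0.562 to 0.737). Cox4i2 (5.24), Cspg4 (3.44) and Mcam (2.73), chosen after their values were seen, had ratios above those of Pdgfrb and Rgs5. Also chosen afterwards, Tbx18 (0.826, 0.638 to 1.06) and Kcnk3 (0.912, 0.757 to 1.10) had ratios under 1, as did Ebf1 and Agtr1a. The summed level of the 17 genes was 1466 RPM at 9 weeks, of which Ebf1 alone gave 1118, and 1572 RPM at 78 weeks. Of 17 further smooth muscle genes, 13 had enough reads, of which 8 reached 1.5 and 0 were at 1/1.5 or less, with a median of 1.65. The regulatory light chain gene Myl9 had 3.21 (2.09 to 5.01) and the smoothelin gene Smtn the lowest ratio, 0.798 (0.679 to 0.935). Synpo2, Cald1, Mrvi1 and Tpm1 had 1.65, 1.64, 1.47 and 1.26, and cardiomyocytes also express Synpo2 and Tpm1. The 17 genes summed to 1556 and 2346 RPM. With TMM factors, the count of smooth muscle genes at or above 1.5 was 5.

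Markers of the other cell types of the heart moved as well, and their part in the values of the mural cell genes was not tested. The 6 cardiomyocyte markers, among them the defining Ttn and Myh6, summed to 28084 RPM at 9 weeks and 25465 RPM at 78 weeks, and their median ratio was 1.15, which lies under 1 with TMM factors. Ttn was the 1 gene of the 6 at 1/1.5 or less, with a ratio of 0.580 (0.573 to 0.587) and 11849 and 6872 RPM, whereas the ratios of the other 5 ranged from 0.976 to 1.39. Fibroblast markers summed to 616 and 1028 RPM, with 5 of 6 genes at or above 1.5 and a median of 1.79. Endothelial markers summed to 482 and 760 RPM (3 of 6 genes, median 1.48), macrophage markers to 308 and 504 RPM (4 of 6 genes, median 1.63) and lymphatic endothelial markers to 152 and 242 RPM (2 of 3 genes, median 2.55). The median of 2.19 over the 6 genes described was thus above those of fibroblasts, endothelium and macrophages and below that of lymphatic endothelium. Of the further mural genes, those of pericytes had a median of 2.003, above that of fibroblasts. Those of smooth muscle, with 1.65, lay below fibroblasts and close to macrophages. The 3 mesothelial markers summed to 46.5 RPM at 9 weeks and 11.4 RPM at 78 weeks. Only 1 of them, Wt1, had at least 20 reads in both libraries, with a ratio of 0.302 (0.225 to 0.399). Schwann cell markers (5.75 and 5.34 RPM) and adipocyte markers (12.1 and 11.5 RPM) were low at both ages, with 1 of 3 and 1 of 2 genes at 20 reads or more in both libraries.

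**Figure D5:**
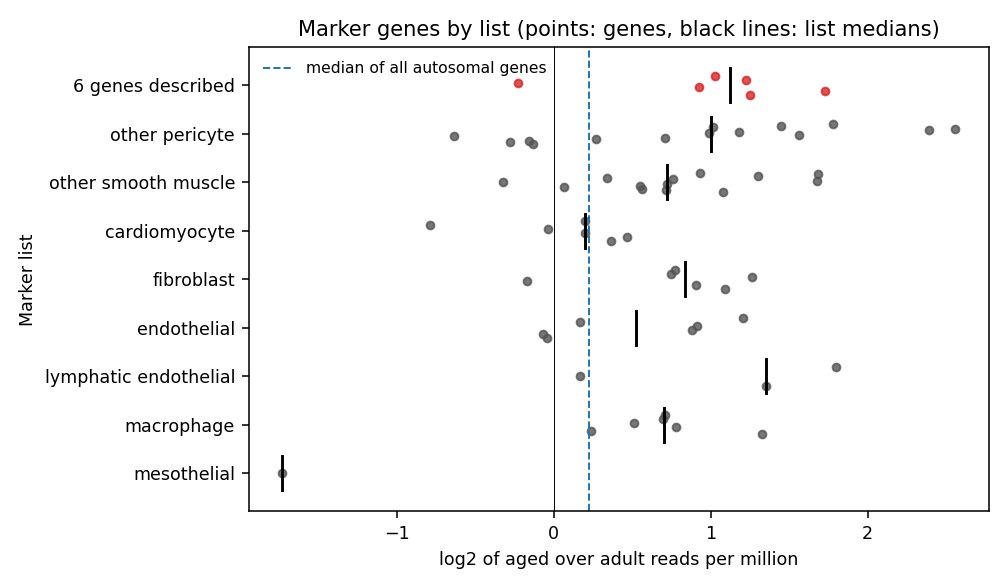
Log2 of aged over adult RPM (x axis) for single genes (points) of the mural cell genes described and of marker lists (y axis), with list medians as black lines and the median of all autosomal genes as a blue dashed line (0.22). The 6 mural cell genes have a median of 1.12, and points lie on both sides of 0 in the lists of pericyte, smooth muscle, cardiomyocyte, fibroblast and endothelial genes.

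The autosomal genes with the most similar values were found by the Euclidean distance over 4 values, log2 of RPM + 1 of each allele at each age, with both libraries contributing. Nearest to Pdgfrb were Gm29975 (distance 0.220), Gatad2a (0.230) and Yars (0.246), and nearest to Rgs5 were Stk40 (0.132), Foxp4 (0.206) and Arhgef1 (0.226). Notch3 was closest to Rev1 (0.113), St3gal2 (0.166) and Reck (0.178), and Abcc9 to Tmem19 (0.145), Erc2 (0.160) and Pank3 (0.200). The nearest to Acta2 were Calm2 (0.199), Ppl (0.208) and Eva1c (0.285). Myh11 stood farthest from any other gene, with Gas7 at 0.421, Tnxb at 0.442 and Palm at 0.543. No mural cell gene was among the 3 nearest of another.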

How the data were processed

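Hearts of 1 adult and 1 aged female were assigned to their ages by the labels. Where a file name disagreed with a label on the number of weeks, the label was used. The authors aligned the reads to mm10 with Cell Ranger 7.1.0, separated them by nucleus with sinto, pooled the nuclei with a BL6 Xa and ran Allelome.PRO2 with a RefSeq annotation. Deposited are, per locus, raw counts of the SNP-overlapping reads of each allele, and the allelic ratio as a fraction rounded to 2 decimals by the authors. The deposited score was not analysed. Use of strand, collapsing of duplicates and correction for ambient RNA are not stated for these reads. Doublets were removed from the expression matrices with DoubletFinder, and whether the nuclei pooled here were limited to singlets is not stated in the sources used here.

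RPM, allelic ratio and intervals were computed from the counts with Python 3.11.15, pandas 2.3.3 and SciPy 1.17.1, with exact Poisson and Clopper-Pearson intervals, exact conditional binomial intervals for ratios and Newcombe intervals for changes in allelic ratio. The interval functions were tested on simulated data. With 1 library per age, no p-value was computed. A minimum of 20 reads in both libraries, a 1.5-fold ratio and an allelic ratio distance of 0.1 were used. Coordinates are those of the deposited loci on GRCm38, counted from 1, with strands from GENCODE M21, and the symbols Gucy1a1 and Gucy1b1 were matched to Gucy1a3 and Gucy1b3. The genes named are all 7 members, of each list the highest, the lowest and up to 4 with the most reads, the overlapping and nearest loci, and the 3 genes nearest in 4 values. Some genes that this rule also names are not reported here. The alternatives were other scalings (edgeR 4.0.16 for TMM factors), read minimums, folds, allelic ratio distances and the deposited allelic ratio. Leaving out overlapping loci from the read ratios and the subtraction of 5330439B14Rik, alone and with each other scaling, were added after the data were seen. The genes and lists were chosen with earlier results of these data known.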

Additional observations from a re-analysis of the deposited data

Results flagged for a closer look

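None of the 6 mural cell genes had allelic ratio intervals on opposite sides of the autosomal median at the 2 ages, although Acta2 passed from 0.562 to 0.432. Of the 102 genes whose values were looked at, 5 had such intervals, beside 203 of 12390 autosomal genes (1.64%). They were Fas beside Acta2 (allelic ratio 0.605 in the adult and 0.444 in the aged heart, a change of 0.161), the SRF coactivator genes Mkl1 (0.576 and 0.490, 0.0855) and Mkl2 (0.511 and 0.574, -0.0627), the endothelial marker Cdh5 (0.613 and 0.450, 0.163) and the lymphatic endothelial marker Mmrn1 (0.622 and 0.451, 0.171). With 1 library per age, the differences between ages were not tested.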

How the results depend on the processing

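The count of 5 genes with a ratio of at least 1.5 was also 5 with each of 4 other scalings. A smaller fold and read minimums of 1 and 100 gave 5 as well, but could not have changed the count. Each of the 6 genes had at least 123 reads in both libraries, and Abcc9 lay at a ratio of 0.853. The count was 4 with a fold of 2. Without Abcc9 and Notch3, which share bases with another locus, it was 4, which is every gene left. It was 6 with the reads of Abcc9 outside 5330439B14Rik, or 5 when TMM factors or the median of ratios were used as well. The median log2 ratio of 1.12 ranged from 0.90 to 1.24. The counts of genes at least 0.1 from the autosomal median allelic ratio, 1 adult and 3 aged, depended on the distance chosen, since a distance of 0.15 left 0 in both libraries and a distance of 0.05 gave 5 aged genes. Measured from an allelic ratio of 0.5, 1 aged gene lay at least 0.1 away, and the deposited allelic ratio gave 2. Of the alternatives for these counts and medians, 45 kept the value within the limits used and 4 did not, and for single genes and lists 159 did and 25 did not. The 45 include the read minimums and the smaller fold, which could not change the values. They also include the 14 alternatives for the count of genes at 1/1.5 or less, which was 0 in each. Counts of 4 or 6 in place of 5, and of 2 in place of 3, were within the limits as well. The tally thus does not mean that the counts stayed equal. With TMM factors, the ratio of Pdgfrb was 1.74 and that of Myh11 2.84, and the counts of genes at or above 1.5 were 3 for fibroblasts and 1 for macrophages. No paired analysis was possible because each age has 1 library, and for the same reason no library could be left out. Few reads limit the precision of Abcc9 outside 5330439B14Rik (52 and 49 reads), Actg1 (38 and 32), Srf, Pdgfb, Rgs4, Myl9 and Kcnj11, among others.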
